A study of Mus musculus with 10 samples.

Results

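The genes examined were 8 that encode hepatocyte transcription factors, Hnf4a, Foxa1, Foxa2, Foxa3, Cebpa, Nr1h4, Prox1 and Onecut1, out of 21938 protein-coding genes in the GENCODE vM21 annotation. They were taken by name. For each, the summits of all peak lists that lay in the gene body or within 50 kb of either end were placed on mm10, which gave 623 of the 819399 summits of the series. The data were ChIP-seq peak lists of AB17 cells, primary mouse hepatocytes of the strain C57BL/6 with loxP-flanked Arid1a (Arid1a fl/fl), which per the study's methods were made immortal by viruses carrying the SV40 large T antigen and H-Ras V12D and then selected with puromycin. The wildtype (WT) cells had received the control adenovirus Ad-GFP, and the knockout (KO) cells the Cre-expressing adenovirus Ad-Cre (Arid1a-/-), so both genotypes carried the immortalizing genes and a viral infection. H3K27me3 and H3K9me3 were profiled in WT and KO cells, whereas Arid1a, Brg1, Ctcf and Rad21 were profiled in WT cells only. Each group was 1 library, and nothing in a difference between genotypes below was tested or has a replicate error. A summit is the highest point of a peak. Its −log10 q, as MACS2 gave it, is a measure of strength within its own library that grows with depth. Where values or the same minimum are given for both genotypes, they do not compare strength between the libraries. Sequencing depth is unknown from the lists, which held 70408 Arid1a, 81527 Brg1, 91355 Ctcf, 101647 Rad21, 109601 WT H3K27me3, 86050 KO H3K27me3, 143835 WT H3K9me3 and 134976 KO H3K9me3 summits. A lower count in one genotype can therefore not be told apart from a shallower library, and broad marks appear as strings of neighbouring summits.

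The factors encoded by these genes form the core network that specifies liver identity. Foxa1, Foxa2 and Foxa3 are forkhead proteins that can bind closed chromatin and open it in early endoderm. Hnf4a is a nuclear receptor needed for most of the hepatocyte programme, and Cebpa is a basic leucine zipper protein of liver metabolism and growth arrest. Nr1h4, also known as FXR, is the bile acid receptor, Prox1 is a homeodomain protein of hepatoblasts and lymphatic endothelium, and Onecut1, also known as HNF6, acts in hepatocyte and bile duct differentiation. Arid1a and Brg1 are subunits of SWI/SNF, which moves nucleosomes, and Brg1 is its ATPase. H3K27me3 is laid down by Polycomb complexes, which SWI/SNF opposes at many developmental genes, and H3K9me3 marks constitutive heterochromatin. Ctcf and the cohesin subunit Rad21 sit together at loop anchors.

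The reference sequence before the starts of 5 of the genes and under 2 of the strongest Ctcf summits is shown because the genes are told apart there by Ctcf, SWI/SNF or H3K27me3. In the first set, the capitals mark the Ctcf core letters AGGGGGC or AGGTGGC (searched on both strands), and each run is the 250 bases before the RefSeq start in GRCm38, read in the direction of the gene. The core lay 28 bp from a Ctcf summit at Cebpa and 9 bp from one at Foxa3. At Onecut1, whose core stood 115 bases before the start as that of Foxa3 did, no Ctcf summit was listed within 1 kb. The runs are chr7:35119043-35119292 (plus strand) for Cebpa, chr7:19023540-19023789 (minus strand) for Foxa3 and chr9:74861671-74861920 (plus strand) for Onecut1.
Cebpa: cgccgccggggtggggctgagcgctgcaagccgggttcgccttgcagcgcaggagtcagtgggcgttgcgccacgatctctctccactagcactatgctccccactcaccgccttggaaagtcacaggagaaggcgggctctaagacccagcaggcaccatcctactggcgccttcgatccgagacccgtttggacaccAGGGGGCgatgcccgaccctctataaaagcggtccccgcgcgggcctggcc
Foxa3: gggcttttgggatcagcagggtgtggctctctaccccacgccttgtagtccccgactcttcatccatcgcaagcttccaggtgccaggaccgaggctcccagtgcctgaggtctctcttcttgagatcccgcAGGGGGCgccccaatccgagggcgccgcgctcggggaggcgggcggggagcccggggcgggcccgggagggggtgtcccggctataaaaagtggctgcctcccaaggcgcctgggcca
Onecut1: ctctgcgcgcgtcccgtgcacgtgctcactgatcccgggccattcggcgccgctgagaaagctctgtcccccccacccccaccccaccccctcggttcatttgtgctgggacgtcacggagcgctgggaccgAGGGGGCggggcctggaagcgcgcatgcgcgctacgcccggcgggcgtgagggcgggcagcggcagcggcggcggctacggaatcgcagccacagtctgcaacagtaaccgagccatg

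The second set contrasts Prox1, the gene with H3K27me3 and no factor summit, with Foxa2, a gene with SWI/SNF at its start and hardly any H3K27me3. Here the capitals mark CpG dinucleotides, of which the 250 bases held 20 at Prox1 and 6 at Foxa2. These counts belong to the starts shown, since the 250 bases before the inner RefSeq starts held 11 at Prox1 and 13 and 20 at Foxa2. The runs are chr1:190170828-190171077 (minus strand) and chr2:148046970-148047219 (minus strand), each before the outermost RefSeq start.
Prox1: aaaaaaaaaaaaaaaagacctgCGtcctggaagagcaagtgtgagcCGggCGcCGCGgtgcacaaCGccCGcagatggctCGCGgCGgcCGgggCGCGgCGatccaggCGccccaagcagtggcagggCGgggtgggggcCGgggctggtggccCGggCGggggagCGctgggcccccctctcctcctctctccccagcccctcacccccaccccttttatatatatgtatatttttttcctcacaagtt
Foxa2: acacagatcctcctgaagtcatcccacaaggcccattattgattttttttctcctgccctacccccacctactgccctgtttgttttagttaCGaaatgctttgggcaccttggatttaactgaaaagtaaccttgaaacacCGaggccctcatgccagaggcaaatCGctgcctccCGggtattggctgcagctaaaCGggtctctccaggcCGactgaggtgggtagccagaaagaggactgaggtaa

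The third set is the reference within 50 bp on either side of the strongest Ctcf summits of Foxa2 (chr2:148048614-148048714) and Nr1h4 (chr10:89462031-89462131), both on the plus strand of GRCm38, with the Ctcf core in capitals. Foxa2 held it 15 bp from the summit. At Nr1h4, which had the strongest Ctcf summit among the 8 genes, these letters were not in the window, and nothing follows from that about Ctcf.
Foxa2: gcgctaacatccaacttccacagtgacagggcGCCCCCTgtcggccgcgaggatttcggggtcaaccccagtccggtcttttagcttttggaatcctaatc
Nr1h4: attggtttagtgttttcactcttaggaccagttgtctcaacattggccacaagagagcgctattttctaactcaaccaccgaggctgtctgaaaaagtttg

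To address how the 8 genes differ, the summits were placed by distance from the outermost annotated start. The genes differed in what their windows held. Foxa2 and Nr1h4 held the most Arid1a and Brg1 summits per kb among the 8 genes, and next to no H3K27me3. Such low H3K27me3 was common, since 8451 of the 21938 protein-coding genes held 0 or 1 WT summits. Hnf4a, Foxa1, Foxa3, Cebpa and Onecut1 held H3K27me3 together with some SWI/SNF. Prox1 held H3K27me3 with no summit of any of the 4 factors. The windows held 37 Arid1a, 41 Brg1, 66 Ctcf and 66 Rad21 summits, together with 163 H3K27me3 summits from WT cells (and 144 from KO cells) and 57 and 49 H3K9me3 summits. Arid1a, Brg1, Ctcf and Rad21 each had a summit in 7 of 8 windows, all but that of Prox1, beside 82.8%, 83.6%, 91.2% and 90.4% of all protein-coding genes. H3K27me3 had one in 8 of 8 windows in WT cells (68.7%) and 6 of 8 in KO cells (61.1%), and H3K9me3 in 8 of 8 (93.5%) and 7 of 8 (94.9%). The median over the 8 genes was 19.5 WT H3K27me3 summits per window, beside 4 over all protein-coding genes, and 2.5 Arid1a and 4 Brg1 summits, beside 5 of each.

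**Figure D1:**
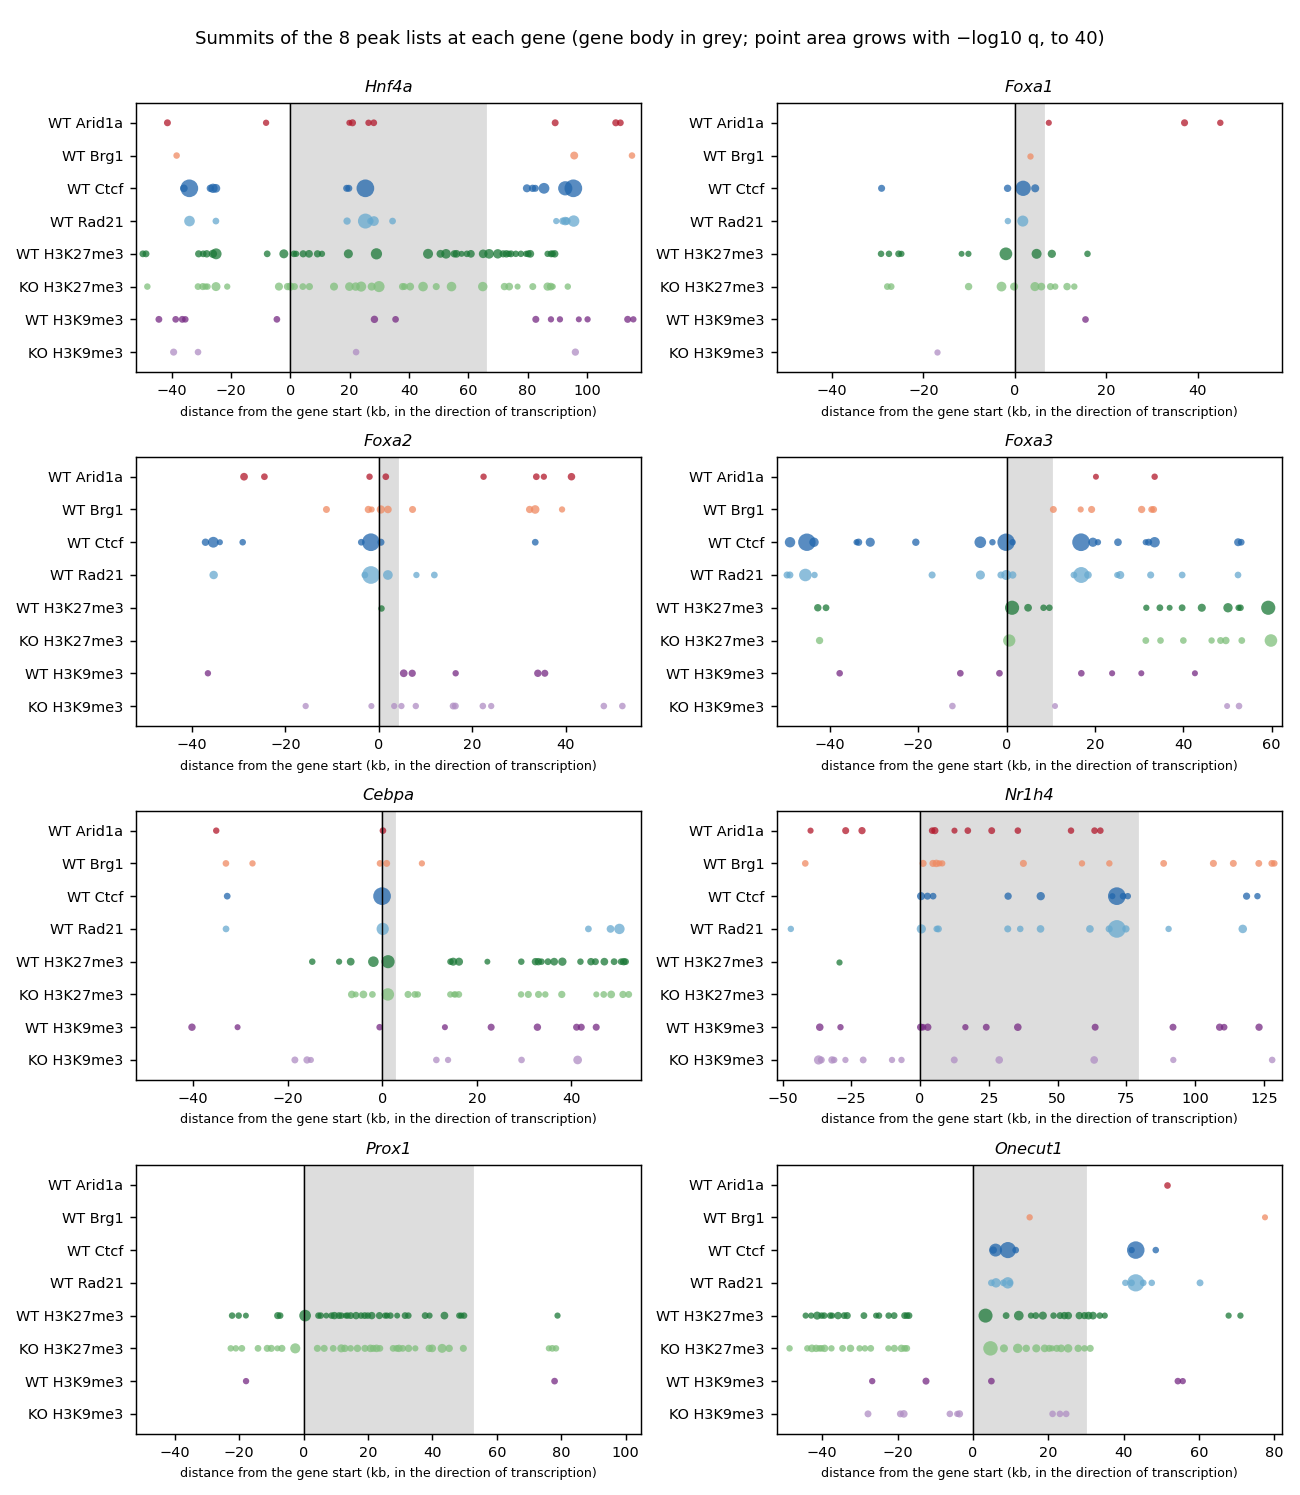
Summits of the 8 peak lists (rows) at each of the 8 genes (panels), by distance from the gene start in kb, with the gene body in grey and point areas that grow with −log10 q. Prox1 shows H3K27me3 in both genotypes and no point in the 4 factor rows, and Foxa2 and Nr1h4 each show 1 H3K27me3 point in WT and 0 in KO cells.

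**Figure D2:**
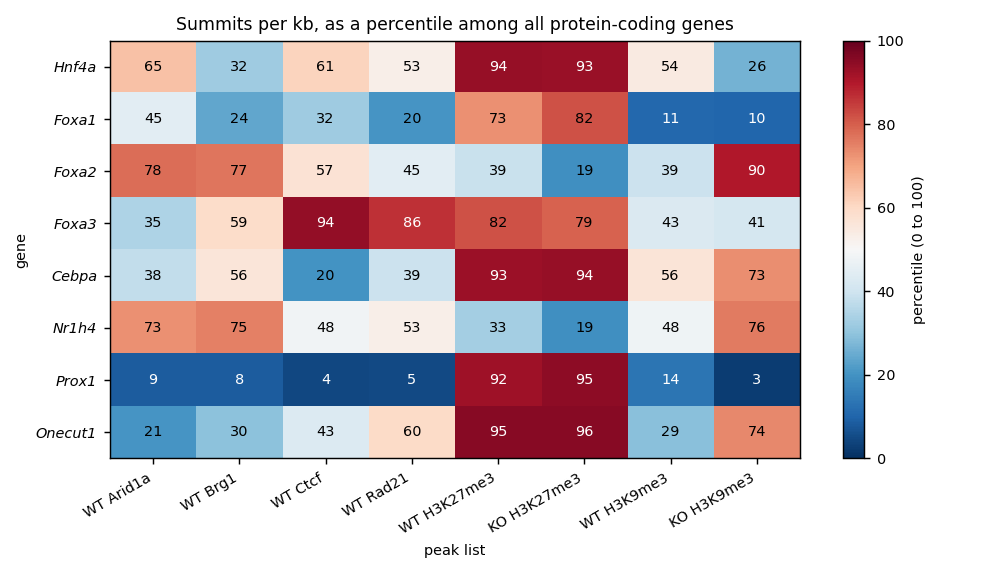
Summits per kb of window for each gene (rows) and peak list (columns), as a percentile among 21938 protein-coding genes, where 50 is the middle gene. The 2 H3K27me3 columns are high for 6 genes, whereas the Arid1a and Brg1 columns are highest for Foxa2 and Nr1h4.

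Arid1a and Brg1 were placed first, since the loss of Arid1a is what separates the genotypes. Both had a summit within 2 kb of the start at 2 of 8 genes, Foxa2 and Cebpa, where 26.5% of all protein-coding genes had both. Only Brg1 had one at Nr1h4, and 21.8% of all genes had 1 of the subunits there. Hence 3 of 8 genes had either subunit there (48.3%), and the other 5 had neither. These shares were near or below those of the background.

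Foxa2 (chr2:148042877-148046969, minus strand) held 8 Arid1a and 9 Brg1 summits in its window. At its start, Brg1 lay 428 bp downstream (−log10 q 5.96), 1949 bp downstream (4.41) and 1537 bp upstream (1.502), and Arid1a lay 1491 bp downstream (2.65) and 1994 bp upstream (2.13). The Brg1 summit nearest to the start lay 23 bp from a weak Ctcf summit, and the one at 1949 bp lay 14 bp from a Rad21 summit. The strongest Brg1 summit in any of the 8 windows lay 33492 bp downstream of Foxa2, in an intron of the noncoding gene 9030622O22Rik (6.74), 250 bp from an Arid1a summit and 21 bp from a Ctcf summit. The strongest Arid1a summit of the 8 genes was also here, 28881 bp upstream of the start (4.70).

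Cebpa (chr7:35119293-35121928, plus strand) held 2 Arid1a and 5 Brg1 summits. Arid1a lay 166 bp downstream of the start (2.56), and Brg1 451 bp upstream (2.56) and 952 bp downstream (3.10). The remaining Arid1a summit and 2 of the Brg1 summits lay 27404 to 35070 bp upstream, on the side of Cebpg, whose own window overlaps this one. At Nr1h4 (chr10:89454234-89533585, minus strand) 12 Arid1a and 15 Brg1 summits were listed, the highest number for each subunit among the 8 genes. Its window was also the longest, at 179.35 kb. By density they stood at percentiles 72.8 and 75.3 among all protein-coding genes, but at 52.7 and 59.8 among those of chromosome 10. The only one near the outermost start was Brg1, 1111 bp downstream (3.34). A group of Brg1 and Arid1a summits followed inside the first part of the gene body, with Brg1 at 4669 bp (3.37), 5927 bp (4.33), 7014 bp (1.91) and 8059 bp (1.89) and Arid1a at 4372 bp (2.38) and 5368 bp (3.63). An Arid1a summit also lay within 2 kb of the internal RefSeq start of Nr1h4, 26927 bp downstream of the outermost one.

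At the other genes SWI/SNF was distal. Hnf4a (chr2:163506808-163572910, plus strand) held 9 Arid1a summits, 4 of them in the gene body between 19892 and 28118 bp, and 3 Brg1 summits, none in the body. Its strongest Brg1 summit (5.18) lay at the promoter of the neighbour Ttpal, 95705 bp away. Foxa3 (chr7:19013284-19023538, minus strand) held 2 Arid1a and 6 Brg1 summits, all downstream of the gene and nearest to the starts of Mypop or Irf2bp1. Foxa1 (chr12:57540628-57546916, minus strand) held 3 Arid1a summits downstream of the gene and 1 Brg1 summit 3344 bp into it (2.003), and Onecut1 (chr9:74861921-74891781, plus strand) 1 Arid1a and 2 Brg1 summits, of which the nearest to the start was Brg1 at 15036 bp (2.003). Few SWI/SNF summits were strong, since 0 of 37 Arid1a and 3 of 41 Brg1 summits in the windows reached a −log10 q of 5, beside 2.49% and 3.94% of the whole lists. With that minimum, no gene kept both subunits at its start.

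Prox1 (chr1:190118035-190170714, minus strand) stood apart. No Arid1a, Brg1, Ctcf or Rad21 summit lay in its window of 152.68 kb, which held for 3.97% of all protein-coding genes, while 11.1% had neither Arid1a nor Brg1. The nearest were Ctcf at 124693 bp, Rad21 at 124937 bp, Arid1a at 248521 bp and Brg1 at 282141 bp, all downstream. Its window held 35 H3K27me3 summits in each genotype. At least 10 WT H3K27me3 summits without Arid1a or Brg1 were found at 1.88% of all genes. The same without any summit of the 4 factors occurred at 12 of the 21938 genes, or 0.0547%, a combination that was looked up after it had been seen here.

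Next, H3K27me3 was examined in WT cells. A summit lay within 2 kb of the start at 6 of 8 genes (23.4% of all genes), which were Hnf4a, Foxa1, Foxa2, Foxa3, Cebpa and Prox1. Windows with at least 10 WT summits were found at 6 of 8 genes (33% of all genes), with Onecut1 in place of Foxa2. Hnf4a held 41, Onecut1 36, Prox1 35, Cebpa 24, Foxa3 15 and Foxa1 10. In the same order, 10, 34, 35, 12, 4 and 4 of these were nearer to the gene's own outermost start than to another protein-coding start. The rest were nearer to a neighbouring gene's start, though at Hnf4a 17 lay in the gene body. Foxa2 and Nr1h4 held 1 each, at percentiles 38.9 and 33.0 by density. By density, Onecut1 ranked highest at percentile 95.3 among all protein-coding genes, followed by Hnf4a at 93.6, Cebpa at 92.7 and Prox1 at 92.4.

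The strongest summits lay close to starts. At Foxa3 it lay 1239 bp downstream of the start (24.4), at Cebpa 1252 bp downstream (20.4), at Foxa1 1959 bp upstream (19.01) and at Prox1 475 bp downstream (15.5). Foxa3 had a summit of equal strength at 59252 bp, at the start of the noncoding gene Gm26821, with Nanos2 the nearest protein-coding start 23114 bp away. At Onecut1 the strongest summit (23.9) lay 3330 bp downstream of the outermost start, in a stretch annotated as promoter, and no H3K27me3 summit was listed between 16973 bp upstream and that point. Hnf4a differed, since its strongest summit (14.0) lay 29023 bp into the gene and the nearest to its start was weak (1174 bp, 2.55), with a stronger one (7.66) just outside 2 kb, 2198 bp upstream. Cebpa and Foxa2 had Arid1a, Brg1 and WT H3K27me3 summits at the same start, as 2.08% of all genes did, but their marks differed in strength. The WT H3K27me3 summit at Foxa2, 543 bp downstream, was weak (2.27), with 30.3% of the list below it, whereas 99.5% of the list lay below that at Cebpa.

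To compare the genotypes, the same windows were counted in KO cells. In KO cells H3K27me3 had a summit within 2 kb of the start at 4 of 8 genes (19.8% of all genes). Hnf4a, Foxa1, Foxa3 and Cebpa had one in both genotypes (17.2%), Foxa2 and Prox1 in WT cells only (6.14%), and no gene in KO cells only (2.58%). These counts depended on the distance and the strength allowed. Within 1 kb of the start, WT summits lay at 2 genes (Foxa2 and Prox1) and KO summits at 3 others (Hnf4a, Foxa1 and Foxa3), and with a −log10 q of at least 5 both genotypes had 4 genes. Foxa2 held 1 summit in WT cells and 0 in KO cells, where the nearest was 240954 bp from its start. Nr1h4 likewise held 1 summit in WT cells, 29324 bp upstream of the start (1.76), and 0 in KO cells. Prox1 is different, because its KO list still held 35 summits, with the nearest 2581 bp upstream of the start (10.7) and just outside the limit of 2 kb.

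The 6 windows with at least 10 WT summits also held at least 10 in KO cells (23.8% of all genes). Counts in KO cells were 34 at Hnf4a, 32 at Onecut1, 35 at Prox1, 22 at Cebpa, 10 at Foxa3 and 11 at Foxa1. In the same order, 16, 32, 35, 15, 1 and 8 of these were nearest to the gene's own outermost start. More summits were listed in WT than in KO cells at 6 of 8 genes (51%), more in KO cells at Foxa1 alone (13.4%), and Prox1 had equal numbers (35.6%). Of the 307 summits of both genotypes, 46.9% were from KO cells (exact 95% interval 41.2 to 52.7%, counting error only, with neighbouring summits not independent), beside 44.0% over the whole lists. With the same number of strongest summits taken from each genotype the share was 51.2%, on the other side of an even split.

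The positions of the H3K27me3 summits were then compared. Of the WT H3K27me3 summits in the windows, 67.5% had a KO summit within 1 kb, beside 54.4% of the whole WT list, and of the KO summits 72.2% had a WT summit, beside 68.3%. The windows were dense in the mark, with a median of 19.5 WT summits beside 4 over all protein-coding genes. A partner within 1 kb is found more readily where summits are dense. The difference from the whole lists was therefore not read as positions kept at these genes. In the windows the shares were 34.0% and 37.5% with summits within 3 kb merged, and 35.7% each with a −log10 q of at least 5. They were not computed over the whole lists at these settings. The share from WT to KO was 77.1% at Prox1, 75.0% at Cebpa and Onecut1, 60.0% at Foxa3, 58.5% at Hnf4a and 50% at Foxa1. The strongest WT and KO summits lay within 1 kb of each other at Cebpa (1252 and 1209 bp from the start), Hnf4a (29023 and 29891 bp) and Foxa1 (1959 and 2918 bp upstream). They lay farther apart at Onecut1 (3330 and 4642 bp) and Prox1 (475 bp downstream and 2581 bp upstream). At Foxa3 the strongest KO summit lay at 59861 bp, and the WT summits of equal strength at 1239 and 59252 bp. Hnf4a differed within the gene body. Around its internal RefSeq start, 40347 bp downstream, known as the promoter used in adult liver, 2 KO summits and 0 WT summits lay within 2 kb. The KO list held summits at 37827 bp (3.66), 38497 bp (2.74), 40385 bp (5.06) and 44738 bp (9.29), and the WT list none between 29023 and 46424 bp. Farther on, the WT list held 5 summits between 55253 and 60869 bp, and the KO list none between 54338 and 64869 bp. The gene body held 17 summits in each genotype. Both stretches were picked out after the positions had been seen.

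**Figure D3:**
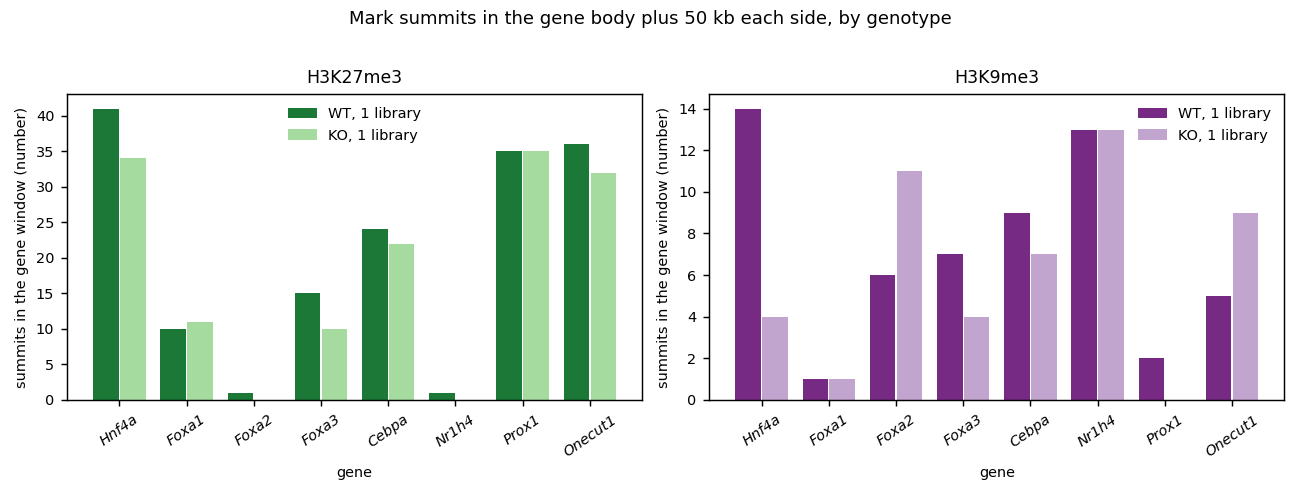
Number of H3K27me3 (left) and H3K9me3 (right) summits in the gene body plus 50 kb each side for the 8 genes, with 1 bar per genotype and 1 library per bar. H3K27me3 bars of WT and KO cells are close at most genes, for example 35 and 35 at Prox1, whereas H3K9me3 bars differ in both directions, from 14 and 4 at Hnf4a to 6 and 11 at Foxa2.

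The windows held fewer H3K9me3 than H3K27me3 summits, and a smaller share of the H3K9me3 positions was shared between genotypes. Against all protein-coding genes, the median percentile of H3K9me3 density over the 8 genes was 41.0 in WT and 57.1 in KO cells. Foxa2 was highest in KO cells, at 90.1. A WT summit lay within 2 kb of the start at 3 of 8 genes, Foxa3, Cebpa and Nr1h4 (38.7% of all genes), and a KO summit at 1 of 8, Foxa2 (14%). At the outermost start none had one in both genotypes (7.3%), so that 3 of 8 had it in WT cells only (31.4%) and 1 in KO cells only (6.69%). The WT summits lay 213 and 1089 bp downstream at Nr1h4 (3.97 and 2.48), 533 bp upstream at Cebpa (2.35) and 1622 bp upstream at Foxa3 (2.63), the last nearer to the start of Sympk. The KO summit at Foxa2 lay 1597 bp upstream (1.54). None of these reached a −log10 q of 5. Over the windows 0 of 57 WT and 2 of 49 KO summits (4.08%) did, beside 4.13% and 4.85% of the whole lists. The counts at starts depended on the distance and the start used. Within 1 kb they were 2 genes in WT and 0 in KO cells, and within 5 kb 5 and 2. With any annotated transcript start they were 4 and 2. A KO summit lay within 2 kb of the internal RefSeq start of Nr1h4.

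Counts in the windows were 14 in WT and 4 in KO cells at Hnf4a, 7 and 4 at Foxa3, 9 and 7 at Cebpa and 2 and 0 at Prox1, so that 4 of 8 genes held more in WT cells (62.7% of all genes). Foxa2 held 6 and 11 and Onecut1 5 and 9, more in KO cells (29.1%). Foxa1 held 1 and 1 and Nr1h4 13 and 13, equal numbers (8.19%). Together 46.2% of the 106 summits were from KO cells (36.5 to 56.2%), beside 48.4% of the whole lists and 39.6% over the windows of all protein-coding genes. At Nr1h4, 3 of 13 WT summits had a KO summit within 1 kb, and 4 of 13 KO summits a WT summit. In WT cells 11 of its 13 summits lay in or downstream of the gene, and in KO cells 8 of 13 lay upstream, with the strongest 36897 bp upstream of the start (8.32). The strongest WT summit upstream lay close to it, 36454 bp from the start (4.34). The other KO summit above 5 lay 41320 bp downstream of Cebpa (6.95). Over the 8 genes, 17.5% of WT summits had a KO summit within 1 kb, beside 31.1% of the whole WT list, and 22.4% of KO summits had a WT summit, beside 33.3%.

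Ctcf and Rad21 were placed next. Each had a summit within 2 kb of the start at 5 of 8 genes, which were Foxa1, Foxa2, Foxa3, Cebpa and Nr1h4 (42.5% of all genes for Ctcf and 50.6% for Rad21). At Cebpa, Ctcf lay 20 bp upstream of the start (51.2) with Rad21 114 bp downstream of it (17.4). Foxa3 had Ctcf 107 bp upstream (38.8) and Rad21 81 bp upstream (10.4). Foxa2 had them 1695 bp (44.4) and 1686 bp (40.4) upstream, and Foxa1 1809 bp (29.1) and 1730 bp (13.5) downstream. The 2 proteins thus lay close together at each of these starts, and the pair at Nr1h4 was weaker, with Ctcf 351 bp (5.51) and Rad21 450 bp (8.25) downstream. The strongest summit of each in the 8 windows was in an intron of Nr1h4, 71504 bp from the outermost start, where Ctcf reached 101.2 and Rad21, 1 bp away, 60.5.

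Of the 3 genes without Ctcf at the outermost start, Prox1 had none in its window, and Hnf4a and Onecut1 had summits elsewhere. Hnf4a had Ctcf at 25293 bp in its body (48.9) with Rad21 at 25313 bp (27.7), and at the promoters of its neighbours Fitm2 (61.7) and Ttpal (48.5). Onecut1 had Ctcf at 5998 bp (19.8) and 9261 bp (32.7), inside the gene and downstream of its strongest H3K27me3 summit, and at 43192 bp (39.1). Of the 66 Rad21 summits, 57.6% had a Ctcf summit within 1 kb (44.8 to 69.7%), beside 52.04% of the whole Rad21 list. By density Foxa3 held the most Ctcf summits, 20, at percentile 93.8, in a gene-dense stretch that included Irf2bp1, Sympk and Dmwd.

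The relation between SWI/SNF and H3K27me3 was then described across the 8 genes. Foxa2 and Nr1h4 had 16.3 and 15.1 Arid1a and Brg1 summits per 100 kb of window and 0.961 and 0.558 WT H3K27me3 summits. Onecut1 and Prox1 had 2.31 and 0 SWI/SNF summits and 27.7 and 22.9 H3K27me3 summits. Hnf4a, Cebpa and Foxa3 lay between, with 7.22, 6.82 and 7.26 SWI/SNF summits and 24.7, 23.4 and 13.6 of the mark, and Foxa1 had 3.76 and 9.41. Over these 8 genes Pearson's r was −0.787 and Spearman's rho −0.619, given as a description, since all points come from the same 3 libraries. Over all 21938 protein-coding genes r was −0.158 and rho 0.0223. SWI/SNF at the start (both subunits) was found at 21.7% of genes with at least 10 WT H3K27me3 summits, 32.4% of those with 2 to 9 and 26.2% of those with 0 or 1.

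**Figure D4:**
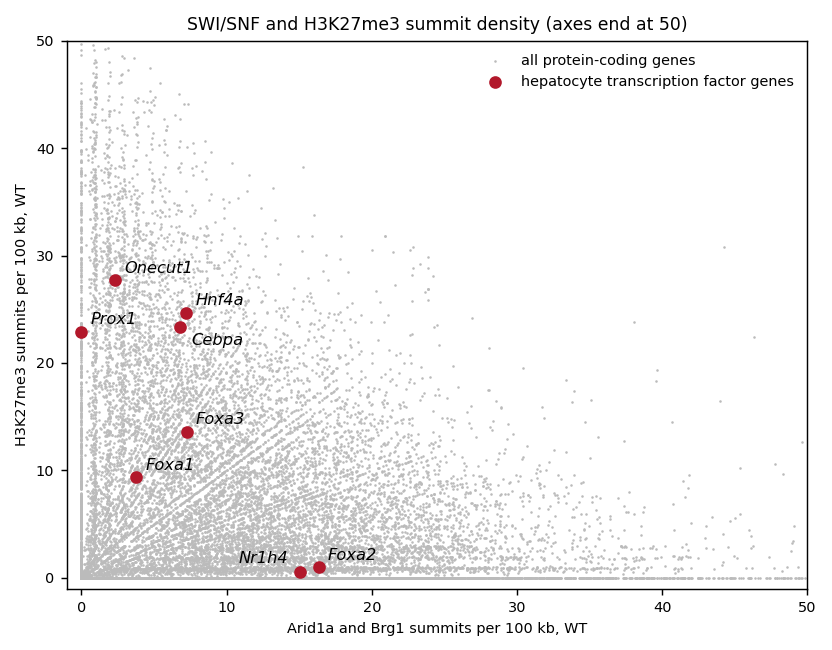
Arid1a plus Brg1 summits per 100 kb of window (x axis) against WT H3K27me3 summits per 100 kb (y axis), with each protein-coding gene in grey and the 8 genes in red, and 45 grey genes outside the axes, which end at 50. Foxa2 and Nr1h4 lie at the lower right, at 16.3 and 15.1 on the x axis, and Onecut1 and Prox1 on the left, at 27.7 and 22.9 on the y axis.

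Within the windows, positions were also compared. Of the 78 Arid1a and Brg1 summits, 12.8% had a WT H3K27me3 summit within 1 kb, 20.5% a WT H3K9me3 summit and 44.9% a Ctcf or Rad21 summit. These pooled shares were not computed over the whole lists. The share near WT H3K9me3 was 18.9% for Arid1a (7.96 to 35.2%) and 22.0% for Brg1 (10.6 to 37.6%), beside 25.2% and 25.6% of the whole lists. For Arid1a alone the share with WT H3K27me3 was 16.2% (6 of 37, interval 6.19 to 32.01%), beside 4.07% of the whole Arid1a list, and 4 of those 6 were at Hnf4a, in a window dense in the mark. For Brg1 it was 9.76% (4 of 41, interval 2.72 to 23.1%), beside 3.53%. The share of Brg1 summits near Ctcf was 39.0% (16 of 41, interval 24.2 to 55.5%), beside 21.0%. Near Rad21 it was 39.0% with the same interval, beside 27.4%. Of the 16 near Ctcf, 5 were in the window of Foxa3, which is dense in Ctcf. For Arid1a the shares near Ctcf and Rad21 were 24.3% (11.8 to 41.2%), beside 19.3%, and 27.03% (13.8 to 44.1%), beside 25.0%. For Arid1a and Brg1 themselves, 21.6% of the Arid1a summits had Brg1 within 1 kb (9.83 to 38.2%), beside 31.1% of the whole list, and 26.8% of the Brg1 summits had Arid1a, beside 27.5%. At Hnf4a 0 of 9 Arid1a summits had Brg1 that near.

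Sequence around the summits and starts was read from GRCm38. The Ctcf core occurred within 50 bp of 12 of the 66 Ctcf summits (18.2%), beside 10.5% of the whole Ctcf list, and in 16.0% of all RefSeq promoters of 300 bases. Letters of the sites of the encoded factors were then looked up at the Arid1a and Brg1 summits. The forkhead letters TGTTTAC or TGTTTGC were at 1 of 37 Arid1a and 1 of 41 Brg1 summits, beside 3.49% and 3.56% of the whole lists. The C/EBP letters TTGCNNAA were at 2 and 1, beside 4.52% and 4.72%, and the Onecut letters ATCGAT or TTGATT at 3 and 1, beside 6.88% and 6.70%. The AP-1 letters TGANTCA, the site of Fos and Jun proteins, were at 0 of either, beside 3.31% and 3.74%. The HNF4 letters CAAAGTCCA and the inverted repeat letters GTCANTGAC used for Nr1h4 were at 0 summits of the 4 factors, where 0.119% and 0.126% of the whole Arid1a list held them. Both strands were searched, and the forkhead letters TGTTTGC end in the bases with which the C/EBP letters begin. CpG content at the starts did not divide the genes as H3K27me3 did. The ratio of observed to expected CpG within 500 bp of the start was 0.889 at Cebpa, 0.794 at Prox1 and 0.784 at Onecut1, but 0.223 at Hnf4a, which held the most H3K27me3 summits, beside a median of 0.552 over all genes. Nr1h4 had 0.269, Foxa1 0.474, Foxa2 0.571 and Foxa3 0.595.

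To place the 8 genes, 20 other genes of hepatocyte transcription factors were counted in the same way. Among them 5 had both SWI/SNF subunits at the start (26.5% of all protein-coding genes) and another 5 had 1 of them (21.8%). H3K27me3 lay at the start of 9 in WT (23.4%) and 8 in KO cells (19.8%). At least 10 WT summits in the window were found at 10 genes (33%), of which 0 had both subunits at the start. Of all genes with that many WT summits, 21.7% had both. The highest WT counts were 61 at Nr5a2, a nuclear receptor of bile acid and cholesterol metabolism, 36 at Tbx3 and 33 at Klf15. The KO counts of these genes were 29, 32 and 33. Cebpb, Gata6 and Hhex, which acts in liver bud formation, held 0 in WT cells, and 1, 0 and 0 in KO cells. Among the genes with H3K27me3 at the start in 1 genotype, Gata4 had it in WT cells and Esrra in KO cells. In sum the 20 windows held 295 H3K27me3 summits for WT and 226 for KO, with more in WT cells at 13 genes (51% of all genes) and more in KO cells at 4 (13.4%). For H3K9me3 the sums were 362 and 149, with more in WT cells at 18 genes (62.7% of all genes) and more in KO cells at 2 (29.1%).

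**Figure D5:**
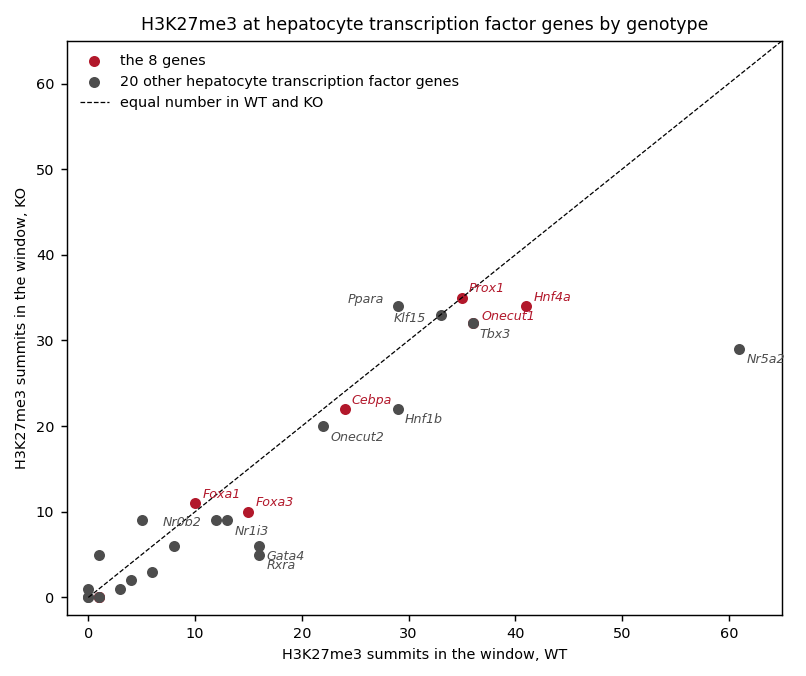
H3K27me3 summits in the gene window in WT cells (x axis) against KO cells (y axis), 1 point per gene, for the 8 genes in red and 20 other hepatocyte transcription factor genes in grey, with the dashed line at equal numbers and 1 library per genotype. Most points lie on or under the line, Nr5a2, at 61 and 29, lies farthest from it, and the points of Onecut1 and Tbx3 coincide at 36 and 32.

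The label of the cells could not be checked by expression, since peak lists hold none. Of 8 hepatocyte marker genes 7 were found in the annotation under the listed symbols, and 5 of these had a summit of some list at the start. The share of all genes with a summit of any list there was not computed. Brg1 lay at the start of Ttr alone, Arid1a at none, and H3K27me3 at that of Ahsg in both genotypes and of Fgb in KO cells. Ctcf lay at 2 of these starts (Apoa1 and Apoa2), Rad21 at 3 (Apoa1, Fgb and Ahsg) and WT H3K9me3 at 1 (Apoa1). Of 5 cholangiocyte markers, 5 had 1 of the SWI/SNF subunits at the start, beside 21.8% of all protein-coding genes with 1 and 26.5% with both. Both subunits lay at 1 of 3 endothelial markers (Kdr) and 1 of 3 stellate cell or fibroblast markers (Col1a1), Brg1 alone lay at the other 2 of the latter (Des and Pdgfrb), and neither subunit lay at 3 Kupffer or blood cell markers. WT H3K27me3 lay at the start of 2 cholangiocyte, 2 endothelial, 1 stellate cell or fibroblast and 1 Kupffer or blood cell marker. WT H3K9me3 lay at the start of 3 cholangiocyte, 2 endothelial, 3 stellate cell or fibroblast and 0 Kupffer or blood cell markers. In the same order, Ctcf lay at 2, 1, 1 and 0 and Rad21 at 2, 2, 1 and 0. Over all protein-coding genes, 35.2% had Arid1a, 39.6% Brg1 and 23.4% WT H3K27me3 at the start. For Ctcf, Rad21 and WT H3K9me3 it was 42.5%, 50.6% and 38.7%. Each cell type had few markers, so these counts do not tell the types apart.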

How the data were processed

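Arid1a, Brg1, Ctcf, Rad21, H3K27me3 and H3K9me3 were measured by ChIP-seq in AB17 cells, with 2 inputs among the 10 samples. Per the submitters' processing notes and the study's methods, the authors used Bowtie2, SAMtools, Picard and MACS2 with mm10 (versions not given in the sources used here). The authors deposited 1 summit list per library, whose values are −log10 q-values (the unit was read from the values, the lowest being 1.30), and the inputs entered through peak calling. Summits on the 19 autosomes and both sex chromosomes (1 elsewhere was left out) were counted per gene of GENCODE vM21 in the body plus 50 kb, and within 2 kb of the outermost start. Positions were called shared within 1 kb. Intervals are exact (Clopper-Pearson, 95%). With 1 library per group no test was made. Motifs were searched in GRCm38.p6, and promoter sequences are from RefSeq. The named summits were, by rule, the strongest per list and gene and each Arid1a or Brg1 summit at a start, and other genes were named for the 3 highest and 3 lowest WT H3K27me3 counts or a start marked with H3K27me3 in 1 genotype (1 such gene is not reported here). Further positions, the minimum of 10 summits, the RefSeq starts and the core positions were chosen after seeing the values. The genes and lists were chosen with earlier results of these data known. Python 3.11.15, numpy 2.4.6, scipy 1.17.1 and matplotlib 3.10.9 were used, and the counting was tested on simulated lists.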

Additional observations from a re-analysis of the deposited data

How the results depend on the processing

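No paired analysis was possible because each group was 1 library. Of 148 values recomputed under alternative settings, 110 stayed within the limits set for them, 36 moved and 2 crossed an even split. With summits of −log10 q of at least 5, the genes with both Arid1a and Brg1 at the start numbered 0, the KO share of H3K9me3 was 100% (2 of 2 summits), Rad21 with Ctcf 77.3%, H3K27me3 shared from WT to KO and from KO to WT 35.7% each, H3K9me3 shared from KO to WT 0% of 2, and Arid1a and Brg1 summits with WT H3K27me3 0%, with WT H3K9me3 0% and with Ctcf or Rad21 33.3% of 3. The share of H3K9me3 from WT to KO has no value there, since no WT summit in the windows reached 5. Of the whole H3K9me3 lists, 4.13% of WT and 4.85% of KO summits did. With a start of 1 kb, 1 gene had both subunits. With the same number of strongest summits in each genotype, ties being broken by a seeded draw, the KO share of H3K27me3 was 51.2%. With 2 kb as the shared distance the values were 77.3% for Rad21 with Ctcf, 82.8% and 86.1% for H3K27me3 in either direction, 24.4% for Arid1a and Brg1 with WT H3K27me3 and 33.3% with WT H3K9me3, and with 500 bp H3K27me3 gave 46.6% and 54.2%. Merging summits within 3 kb gave 34.0% and 37.5% for H3K27me3 and 25% for Arid1a and Brg1 with Ctcf or Rad21. The gene body plus 2 kb gave 24.2% with WT H3K27me3 and 57.6% with Ctcf or Rad21. Without Nr1h4, the gene with the most, 51 of 78 Arid1a and Brg1 summits remained. The windows with at least 10 WT H3K27me3 summits were 3 with the body plus 2 kb, and 1 when merged or at a −log10 q of 5. Except where an alternative leaves fewer summits or widens the distance by construction, the cause was not tested. Depth is unknown, and 1 library per genotype limits all differences between WT and KO cells.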
